A study of Homo sapiens with 16 samples.

Results

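The pyruvate dehydrogenase complex turns pyruvate into acetyl-CoA in the mitochondrial matrix, and the 10 genes described here control the supply of its substrate and the activity of its first enzyme. They were taken by name from a table of 58735 human genes. They are the kinase genes PDK1, PDK2, PDK3 and PDK4, the phosphatase genes PDP1 and PDP2, the genes PDHA1 and PDHB of the alpha and beta subunits of the first enzyme (E1), and the carrier genes MPC1 and MPC2. All 10 of 10 passed the filter on low counts, which kept 18121 genes. The set was chosen with earlier results of these data known. Counts of its genes called, given beside the shares of all genes, are therefore descriptions, and enrichment was not tested.

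RNA was sequenced from HepaRG, a human liver cell line that after differentiation holds hepatocyte-like and cholangiocyte-like cells side by side. The 4 groups had 4 libraries each. The combination group received 30 nM formoterol, a beta-2 adrenoceptor agonist, together with 0.25 mM palmitic acid and 0.5 mM oleic acid. The fatty acids group received the same palmitic and oleic acid without formoterol, the formoterol group 30 nM formoterol alone, and the control group a vehicle of 1% BSA, which the labels name for control only. If the other groups lacked BSA, its effect cannot be told apart from the treatment in comparisons with control or in the interaction. All groups were differentiated cells kept in 2% DMSO, and treatment lasted 3 days with fresh medium each day. The growth medium held triamcinolone acetonide, a glucocorticoid, and insulin. Libraries were labelled as replicates, but separate cultures are not named, so the p-values reflect the scatter among these libraries, which may be technical. HepaRG is 1 cell line, so the values describe no variation between donors.

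Phosphorylation of the E1 alpha subunit by the kinases switches the complex off, and removal of the phosphates by the phosphatases switches it on again. Acetyl-CoA and NADH, which fatty acid oxidation supplies, stimulate the kinases. PDK4 is known as the kinase that liver and muscle raise in fasting and on fatty acid exposure, through nuclear receptors of the PPAR family and through glucocorticoid and FOXO signalling. MPC1 and MPC2 form the heterodimer that carries pyruvate across the inner mitochondrial membrane.

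The promoters of PDK4, PDK3, PDHA1 and MPC1 are shown as examples of genes with a single annotated start in RefSeq. Of these, PDHA1 and MPC1 had similar patterns (r = 0.888 between their levels over the 16 libraries). Each is the 250 bases before the start in GRCh38.p14, written 5′ to 3′ on the strand of the gene. They are chr7:95596517-95596766 (minus strand) for PDK4, chrX:24465036-24465285 (plus strand) for PDK3, chrX:19343677-19343926 (plus strand) for PDHA1 and chr6:166382941-166383190 (minus strand) for MPC1. Capitals mark matches, on either strand, to the motifs named after the sequences.
PDK4: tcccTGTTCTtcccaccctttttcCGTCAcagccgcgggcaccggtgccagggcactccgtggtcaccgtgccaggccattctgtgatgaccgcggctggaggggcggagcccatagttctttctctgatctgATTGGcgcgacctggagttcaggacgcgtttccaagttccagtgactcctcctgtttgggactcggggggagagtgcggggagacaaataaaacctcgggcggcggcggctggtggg
PDK3: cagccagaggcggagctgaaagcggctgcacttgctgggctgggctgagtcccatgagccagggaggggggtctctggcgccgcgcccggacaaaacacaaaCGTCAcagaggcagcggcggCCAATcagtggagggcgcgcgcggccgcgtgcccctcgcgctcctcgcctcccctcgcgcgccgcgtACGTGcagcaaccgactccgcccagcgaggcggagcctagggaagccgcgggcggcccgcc
PDHA1: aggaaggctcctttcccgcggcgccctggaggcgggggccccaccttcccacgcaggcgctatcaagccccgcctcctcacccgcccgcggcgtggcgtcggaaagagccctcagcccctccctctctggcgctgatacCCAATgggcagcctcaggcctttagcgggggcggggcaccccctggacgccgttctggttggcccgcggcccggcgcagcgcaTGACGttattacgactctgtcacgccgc
MPC1: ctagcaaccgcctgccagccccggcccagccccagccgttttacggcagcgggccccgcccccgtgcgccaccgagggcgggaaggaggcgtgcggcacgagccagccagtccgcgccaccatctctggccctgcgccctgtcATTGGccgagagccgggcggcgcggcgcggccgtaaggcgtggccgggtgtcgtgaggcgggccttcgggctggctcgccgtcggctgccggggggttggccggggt

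The motifs searched on both strands were AGGTCA (nuclear receptor half-site), AGGTCANAGGTCA (a pair of such half-sites), TGACG (core of a cAMP response element), TGACGTCA (the full element, which contains that core), TGTTTAC (forkhead), TGTTCT (glucocorticoid half-site), CACGTG (E-box), ACGTG (hypoxia core, also found inside CACGTG) and CCAAT. The PDK4 window held TGTTCT beginning 246 bases before the start, TGACG at 226 and CCAAT at 117, the last pair read on the opposite strand as CGTCA and ATTGG. PDK3 held TGACG at 148, CCAAT at 128 and ACGTG at 61 bases before the start, PDHA1 held CCAAT at 111 and TGACG at 28, and MPC1 held CCAAT at 107. In 35116 RefSeq promoter windows of the same length, TGTTCT was found in 12.4%, TGACG in 21.2%, ACGTG in 18.5%, CCAAT in 32.0%, AGGTCA in 12.1%, the AGGTCA pair in 0.0171%, TGACGTCA in 1.65%, TGTTTAC in 2.98% and CACGTG in 6.34%. All 4 printed windows were richer in G and C than the median window, at 62.8% for PDK4, 73.6% for PDK3, 71.6% for PDHA1 and 77.6% for MPC1, against 58.0% over all windows. Of the windows not printed, PDK1 at 35.6% and PDK2 at 51.2% lay below that median. PDP2 at 65.6%, PDHB at 71.6% and MPC2 at 67.2% lay above it. A match is a description of the letters and says nothing of binding. The table matched 9 of the 10 genes, and PDP1 is named only.

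Gene positions are those of GRCh38 with GENCODE release 29, in which each gene ID of the table was found with the same coordinates. PDK1 lies on chromosome 2 (172555373 to 172608669, plus strand), PDK2 on chromosome 17 (50094737 to 50112152, plus strand), PDK3 on chromosome X (24465221 to 24541862, plus strand) and PDK4 on chromosome 7 (95583499 to 95596491, minus strand). PDP1 lies on chromosome 8 (93857807 to 93926066, plus strand) and PDP2 on chromosome 16 (66878589 to 66895754, plus strand). PDHA1 lies on chromosome X (19343893 to 19361705, plus strand) and PDHB on chromosome 3 (58427630 to 58433857, minus strand). MPC1 lies on chromosome 6 (166364919 to 166383013, minus strand) and MPC2 on chromosome 1 (167916729 to 167937040, minus strand). MPC2 shares 575 exonic bases with DCAF6 on the other strand, a gene with 2.71 times the counts of MPC2. Whether counting used strand is not stated in the labels or file headers, so reads of MPC2 and DCAF6 cannot be told apart in that stretch. Other overlapping genes held at most 1.5% of a member's counts.

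Gene counts per library, in units of 1e6, were 33.1 to 41.7 in the combination group, 32.5 to 39.2 in the fatty acids group, 32.8 to 65.7 in the formoterol group and 33.3 to 34.9 in control. Combination replicate 2 stood apart from its group. Its summed level of the 15 hepatocyte markers was 25068 CPM (counts scaled to 1e6 per library), against 58095 to 64356 CPM in the other 3 combination libraries, and the values that most rest on it are given with and without it. The same sum was 55617 to 64456 CPM in the fatty acids group, 63564 to 70530 CPM in the formoterol group and 30280 to 43168 CPM in control, with all 15 markers above 1 CPM in each group. The summed 9 cholangiocyte markers reached 369 to 459 CPM in the combination group, 443 to 493 CPM in the fatty acids group, 302 to 327 CPM in the formoterol group and 262 to 278 CPM in control, with 5 above 1 CPM and EPCAM at 0. The 8 stellate cell and fibroblast markers summed to 606 to 765, 757 to 886, 469 to 512 and 639 to 803 CPM in the same order of groups (5 above 1 CPM, COL1A2 at 0), and the 6 endothelial markers to 52.6 to 107, 158 to 171, 38.9 to 50.6 and 117 to 133 CPM (2 above 1 CPM, CDH5 at 0). The 6 hepatic progenitor markers (3 above 1 CPM) stayed between 38.5 and 64.7 CPM and the 6 macrophage and leukocyte markers (1 above 1 CPM) between 12.6 and 32.1 CPM in all libraries. Marker sums thus moved with the treatments, and their part in the results that follow was not tested. Single markers did not all follow their sum. SOX9 averaged 47.9 CPM in control and 29.15 CPM with fatty acids, while KRT19 averaged 58.7 and 168 CPM. CYP3A4 averaged 2181 CPM in control and 663 CPM in the combination group, while ALB averaged 16504 and 21710 CPM. KDR made up most of the endothelial sum, at 119 CPM in control. A sum that rests on few genes does not measure the share of a cell type. In RNA from whole cultures, fewer cells of a type and less RNA per cell cannot be told apart.

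PDK4 was by far the most abundant of the 10 genes. On a scale per gene length (TPM, counts divided by the deposited gene length and scaled to 1e6 per library), it averaged 2267 ± 535 in the combination group, 2084 ± 120 in the fatty acids group, 566 ± 40.8 in the formoterol group and 613 ± 36.3 in control (SD, n = 4 each). Without combination replicate 2 the combination group averaged 2003 ± 94.1 TPM (SD, n = 3). PDK4's mean TPM over the 16 libraries ranked 53 among 19951 protein-coding genes. The order of mean TPM in control was PDK4, MPC1 (112 ± 12.1), PDHA1 (90.2 ± 1.66), PDHB (72.2 ± 3.54), MPC2 (62.2 ± 3.83), PDP2 (26.2 ± 2.66), PDP1 (25.4 ± 3.07), PDK3 (17.1 ± 1.61), PDK2 (14.0 ± 0.70) and PDK1 (7.06 ± 0.61). Neighbours in that order did not overlap between libraries except PDP2 and PDP1. In the combination and fatty acids groups the order of the lower genes was PDP1, PDP2, PDK2 and PDK3, each overlapping with the next, and PDK4 lay above and PDK1 below all the others in every group. This order rests on lengths that pool all annotated exons of a gene. They are 14883 bases for PDK1, 5481 for PDK2, 4951 for PDK3 and 1546 for MPC1. Before division by length, PDK1 was above PDK2 and PDK3 in every group, with means of 28.0, 20.4 and 22.5 CPM in control. MPC1, at 46.3 CPM in control, was then below PDHA1 and PDHB.

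**Figure D1:**
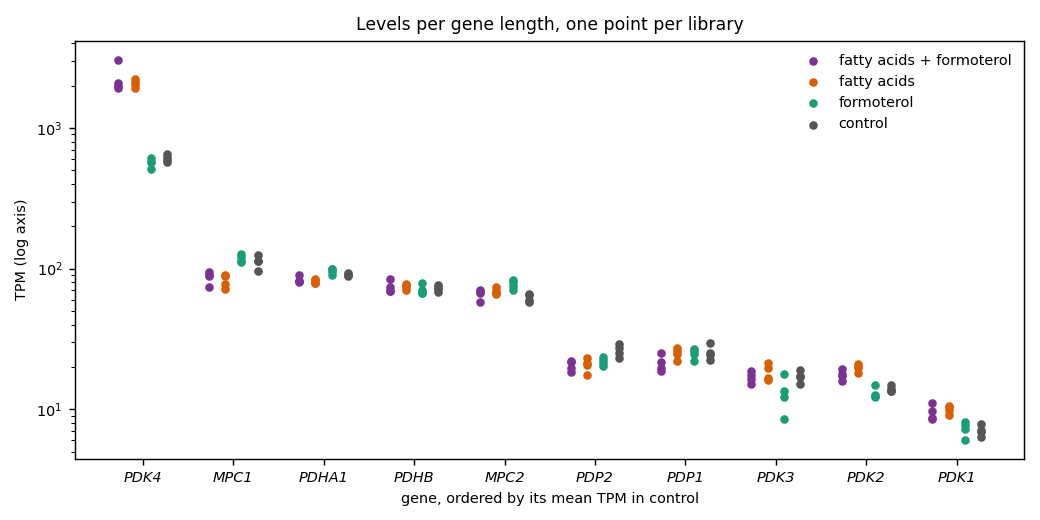
TPM of the 10 genes on a log axis, 1 point per library, for the combination, fatty acids, formoterol and control groups, with genes ordered by their mean in control. PDK4 lies above every other gene in all 16 libraries, and its 8 libraries with fatty acids lie above its 8 without.

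Within the kinase family, PDK4 made up 98.0 ± 0.34% of the summed TPM of the 4 kinase genes in the combination group, 97.7 ± 0.16% in the fatty acids group, 94.5 ± 0.35% in the formoterol group and 94.1 ± 0.48% in control (SD, n = 4 each). PDK1, PDK2 and PDK3 together reached 44.1 ± 3.39 TPM in the combination group, 48.1 ± 2.05 TPM with fatty acids, 33.3 ± 4.41 TPM with formoterol and 38.1 ± 1.89 TPM in control. Summed kinase TPM over summed phosphatase TPM, a ratio taken within each library, was 54.9 ± 7.72 in the combination group, 46.8 ± 3.77 in the fatty acids group, 12.8 ± 0.39 in the formoterol group and 12.7 ± 1.39 in control. The ratio of PDK4 to PDHA1, the subunit that the kinases phosphorylate, was 27.0 ± 4.73, 25.6 ± 1.82, 5.90 ± 0.21 and 6.79 ± 0.39 in the same order of groups. Without combination replicate 2 the other 3 combination libraries gave a PDK4 share of 97.9 ± 0.09%, 43.6 ± 3.97 TPM for the other 3 kinases, a kinase to phosphatase ratio of 51.1 ± 1.94 and a PDK4 to PDHA1 ratio of 24.7 ± 1.2. Both ratios were higher in each of the 8 libraries with fatty acids than in any of the 8 without. These are ratios of transcripts and not of enzyme activities. TPM lacks the scaling between libraries used from the next paragraph on, and small differences between formoterol and control depend on it. With that scaling PDK4 had 776 CPM with formoterol and 739 CPM in control, and PDK2 had 21.8 and 20.4 CPM, although both were lower with formoterol by TPM. PDK1 was higher and PDK3 lower with formoterol on both scales.

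Fatty acids set against control gave the largest change in PDK4, which rose 3.36-fold (log2 fold change 1.75 ± 0.07, SE). PDK1 and PDK2 rose by 0.49 ± 0.09 and 0.48 ± 0.08 on the log2 scale, while PDP2, PDHA1 and MPC1 fell by 0.36 ± 0.09, 0.16 ± 0.05 and 0.47 ± 0.12. Thus 6 of the 10 genes passed the test, 3 in each direction, where 16.5% of all 18121 genes passed, 8.93% higher and 7.62% lower (edgeR quasi-likelihood test, Benjamini-Hochberg adjusted p below 0.05). Groups did not overlap for 6 of the 10, against 21% of all genes. The median log2 fold change of the 10 was 0.06, and that of all genes 0.01. Levels between groups are given from here on as CPM on library sizes scaled by TMM factors (trimmed mean of M values).

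PDK4, whose start follows the first of the 4 promoter windows printed above, had 2454, 2599, 2497 and 2371 CPM in the fatty acids libraries, against 731, 728, 794 and 702 CPM in control. Every library with fatty acids was above every control library. Its adjusted p was 8.65e-14 (edgeR), rank 3 of 18121 genes by p, and 98.7% of genes had a smaller absolute log2 fold change. PDK1, the kinase gene also known as a target of hypoxia signalling, had 40.5, 38.3, 35.5 and 42.5 CPM with fatty acids, against 28.7, 30.3, 27.2 and 25.7 CPM in control (edgeR adjusted p = 0.000736). PDK2, the kinase found in most tissues, had 30.2, 28.9, 26.0 and 29.1 CPM with fatty acids, against 19.96, 19.3, 20.3 and 22.2 CPM in control (edgeR adjusted p = 0.000359). The groups did not overlap for either gene. PDK3, which is known for high levels in testis, had 25.9, 20.6, 27.3 and 22.2 CPM with fatty acids, against 23.0, 24.5, 20.04 and 22.6 CPM in control, and the groups overlapped. Its log2 fold change was 0.09 ± 0.14, with a 95% interval of −0.20 to 0.39 (edgeR adjusted p = 0.731).

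PDP2, one of the phosphatase catalytic subunits, had 45.5, 38.1, 50.6 and 48.4 CPM with fatty acids, against 66.1, 59.4, 56.3 and 52.1 CPM in control, and each fatty acid library lay below each control library (edgeR adjusted p = 0.00777). PDP1, the other catalytic subunit, which calcium activates, had 40.5, 37.4, 36.3 and 33.4 CPM with fatty acids, against 38.2, 43.2, 33.5 and 36.9 CPM in control. The PDP1 groups overlapped, with a log2 fold change of −0.04 ± 0.08 and a 95% interval of −0.20 to 0.12 (edgeR adjusted p = 0.79).

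PDHA1 had 101, 91.9, 97.0 and 96.5 CPM with fatty acids, against 109, 108, 107 and 108 CPM in control. Each fatty acid library was lower than each control library, by a small margin (edgeR adjusted p = 0.0434). That call held in 10 of 24 alternative settings, with adjusted p between 0.0153 and 0.203, and was lost without any single control library and without fatty acids replicate 2, 3 or 4, among others. PDHB, whose product pairs with that of PDHA1, had 93.0, 93.3, 95.4 and 89.8 CPM with fatty acids, against 94.0, 93.2, 85.2 and 91.3 CPM in control (0.03 ± 0.06, 95% interval −0.10 to 0.16, edgeR adjusted p = 0.802).

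The carriers differed. MPC1 had 36.3, 35.95, 31.5 and 30.1 CPM with fatty acids, against 40.5, 45.7, 52.0 and 47.1 CPM in control, with no overlap (edgeR adjusted p = 0.00956). MPC2 had 44.8, 46.1, 44.5 and 51.3 CPM with fatty acids, against 45.1, 39.9, 39.3 and 45.3 CPM in control, and these groups overlapped (0.14 ± 0.11, 95% interval −0.09 to 0.36, edgeR adjusted p = 0.446). The TPM ratio of MPC1 to MPC2 was 1.19 ± 0.16 with fatty acids and 1.82 ± 0.29 in control (SD, n = 4 each), from 0.968 to 1.34 with fatty acids and from 1.48 to 2.18 in control. Apart from PDHA1, the calls of this comparison held in all 24 alternative settings.

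**Figure D2:**
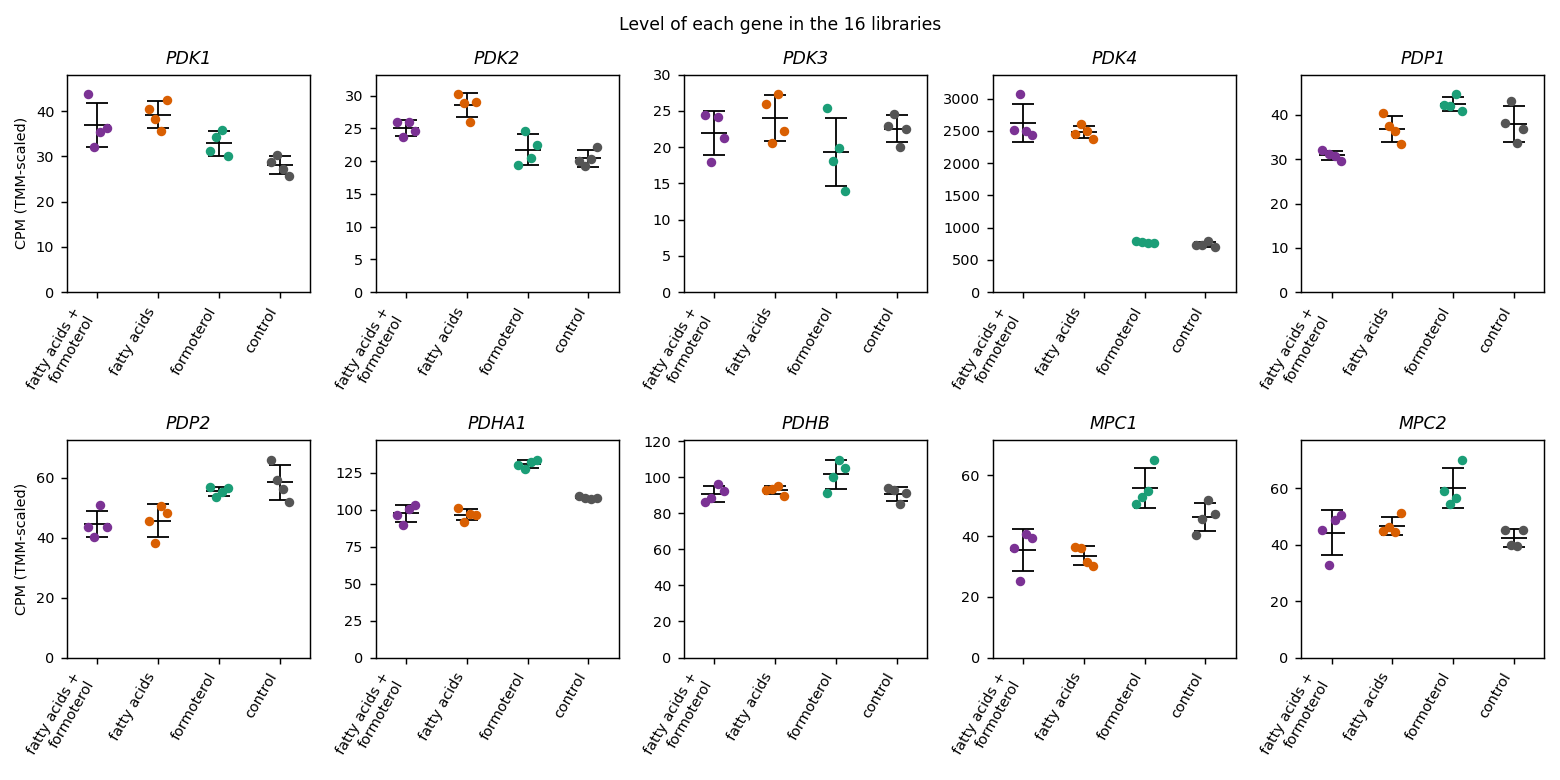
TMM-scaled CPM of each of the 10 genes in the 16 libraries, with the mean and SD of each group of 4 as black bars, for the combination, fatty acids, formoterol and control groups. PDK4 lies between 2371 and 3065 CPM in the 8 libraries with fatty acids and between 702 and 797 CPM in the 8 without, and formoterol alone gives the highest PDHA1 and MPC2.

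Formoterol set against control left the kinases without a called change and raised the E1 alpha subunit and one carrier subunit. PDHA1 rose by 0.28 ± 0.05 and MPC2 by 0.50 ± 0.11 on the log2 scale. These were 2 of the 10 genes, and the same 2 had no overlap between the groups, where 10.3% of all genes passed, 5.76% higher and 4.57% lower (edgeR adjusted p below 0.05), and 16.7% did not overlap. At an unadjusted p below 0.05 there were 6 of the 10, against 24% of all genes. The median log2 fold change of the 10 was 0.16, and that of all genes −0.00.

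PDHA1 had 130, 128, 132 and 134 CPM with formoterol, against 109, 108, 107 and 108 CPM in control, which gives an adjusted p of 0.0026 (edgeR). MPC2 had 59.0, 54.3, 56.3 and 70.1 CPM with formoterol, against 45.1, 39.9, 39.3 and 45.3 CPM in control (edgeR adjusted p = 0.00495). In both genes each formoterol library was above each control library. DCAF6, the gene that overlaps MPC2, had 143 ± 7.58 CPM with formoterol and 132 ± 4.87 CPM in control (SD, n = 4 each, edgeR adjusted p = 0.249). With total counts in place of TMM scaling, the median of all genes moved to −0.14 in this comparison, and PDHA1 had 0.14 with an edgeR adjusted p of 0.0834. Formoterol replicate 4 had the most counts of all libraries and the lowest TMM factor, 0.904, and the formoterol libraries had factors of 0.904 to 0.952.

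The other carrier subunit, MPC1, had 50.4, 52.8, 54.8 and 65.2 CPM with formoterol, against 40.5, 45.7, 52.0 and 47.1 CPM in control, and the groups overlapped (0.27 ± 0.12, edgeR adjusted p = 0.164). Its adjusted p was 0.0368 without combination replicate 2, a library of neither of these groups that enters through the shared fit. PDHB had 91.1, 100.2, 110 and 105 CPM with formoterol, against 94.0, 93.2, 85.2 and 91.3 CPM in control (0.16 ± 0.06, edgeR adjusted p = 0.109). Without formoterol replicate 1 the PDHB value was 0.21 with an adjusted p of 0.0427. PDK4 had 797, 777, 764 and 766 CPM with formoterol, against 731, 728, 794 and 702 CPM in control. Its log2 fold change was 0.07 ± 0.06, with a 95% interval of −0.06 to 0.21 (edgeR adjusted p = 0.557). The remaining log2 fold changes were 0.23 for PDK1, 0.09 for PDK2, −0.22 for PDK3, 0.16 for PDP1 and −0.07 for PDP2, with edgeR adjusted p between 0.119 and 0.679.

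**Figure D3:**
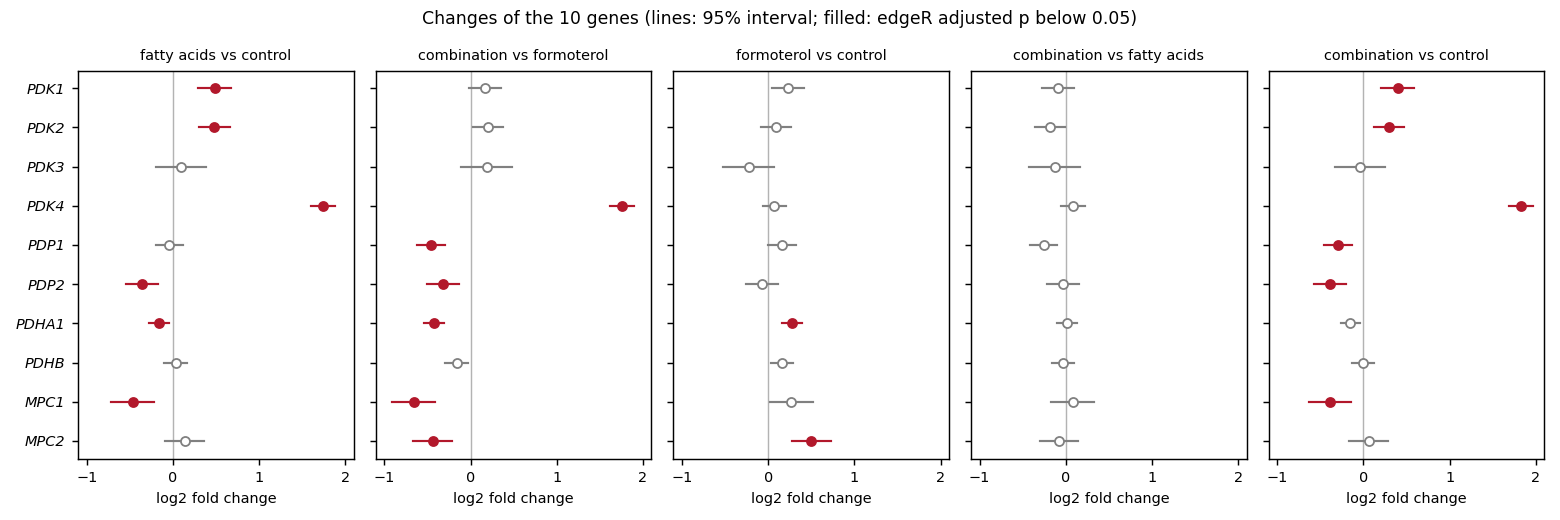
Log2 fold changes of the 10 genes in 5 comparisons, with 95% intervals as lines and filled red points where the edgeR adjusted p is below 0.05. PDK4 stands at 1.75, 1.76 and 1.83 in the comparisons that differ in fatty acids and at 0.07 and 0.08 in those that differ only in formoterol.

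Fatty acids added to formoterol, the combination set against formoterol, raised PDK4 and lowered 5 of the other genes. PDK4 rose by 1.76 ± 0.07 on the log2 scale, and PDP1, PDP2, PDHA1, MPC1 and MPC2 fell by 0.46, 0.32, 0.43, 0.66 and 0.44. That made 6 of 10 called, 1 higher and 5 lower, where 18.4% of all genes passed, 9.48% higher and 8.97% lower (edgeR adjusted p below 0.05), and 6 of 10 without overlap, against 21.1% of all genes. The median log2 fold change of the 10 was −0.24, and that of all genes 0.01.

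PDK4 had 2509, 3065, 2502 and 2435 CPM in the combination libraries, against 797, 777, 764 and 766 CPM with formoterol (edgeR adjusted p = 9.29e-14). Without combination replicate 2 the log2 fold change was 1.68 ± 0.05. PDP1 had 32.0, 31.2, 30.7 and 29.5 CPM in the combination group, against 42.1, 41.9, 44.6 and 40.9 CPM with formoterol (edgeR adjusted p = 0.000284). The PDP1 libraries of each group lay close together and the groups were well apart. PDP2 had 43.7, 40.3, 50.8 and 43.5 CPM in the combination group, against 56.9, 53.6, 55.3 and 56.6 CPM with formoterol (edgeR adjusted p = 0.0148). With total counts in place of TMM scaling, where the median of all genes moved to 0.14, PDP2 had −0.19 and an adjusted p of 0.117.

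PDHA1 had 96.5, 89.8, 100.5 and 103 CPM in the combination group, against 130, 128, 132 and 134 CPM with formoterol (edgeR adjusted p = 1.42e-05). PDHB had 86.2, 88.3, 96.4 and 92.2 CPM in the combination group, against 91.1, 100.2, 110 and 105 CPM with formoterol (−0.16 ± 0.06, edgeR adjusted p = 0.0752). The groups were apart for the alpha subunit gene and overlapped for the beta subunit gene. Without formoterol replicate 1, PDHB had −0.21 and an adjusted p of 0.0254. MPC1 had 36.1, 25.2, 40.8 and 39.4 CPM in the combination group, against 50.4, 52.8, 54.8 and 65.2 CPM with formoterol (edgeR adjusted p = 0.000567). MPC2 had 45.2, 32.6, 48.7 and 50.4 CPM in the combination group, against 59.0, 54.3, 56.3 and 70.1 CPM with formoterol (edgeR adjusted p = 0.00652). By TMM-scaled CPM, combination replicate 2 was the lowest library of its group for PDP2, PDHA1, MPC1, MPC2, PDK1, PDK2 and PDK3. It had the highest TMM factor, 1.13. By TPM it was still the lowest for MPC1 and MPC2 but the highest for PDHA1, at 90.2. Without this library, PDHA1 had −0.39, MPC1 −0.53, MPC2 −0.32 and PDP2 −0.27, with edgeR adjusted p of 2.09e-05, 0.000327, 0.0121 and 0.0415. DCAF6 fell as well, by 0.23 ± 0.06 (edgeR adjusted p = 0.012). PDK1 had 43.7, 32.2, 35.4 and 36.2 CPM in the combination group, against 31.2, 34.4, 35.9 and 30.1 CPM with formoterol. PDK2 had 26.0, 23.6, 26.0 and 24.6 CPM in the combination group, against 19.4, 24.7, 20.5 and 22.5 CPM with formoterol. PDK3 had 24.4, 17.9, 24.1 and 21.3 CPM in the combination group, against 25.4, 18.1, 19.9 and 14.0 CPM with formoterol. The groups overlapped for all 3 kinases, whose log2 fold changes were 0.17, 0.20 and 0.19, with edgeR adjusted p of 0.226, 0.104 and 0.405. Under total counts PDK1 had 0.29 and PDK2 0.34, with adjusted p of 0.0268 and 0.00922, and without formoterol replicate 2 PDK2 had 0.27 with an adjusted p of 0.0426.

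Formoterol added to fatty acids, the combination set against fatty acids, gave no called change in the 10 genes. The count was 0 of 10 by edgeR, where 2.8% of all genes passed (1.68% higher, 1.12% lower), with 2 of the 10 at an unadjusted p below 0.05 (PDK2 and PDP1) against 14.2% of all genes, and 1 called by DESeq2 (PDP1, adjusted p = 0.0498). PDP1 had 32.0, 31.2, 30.7 and 29.5 CPM in the combination group, against 40.5, 37.4, 36.3 and 33.4 CPM with fatty acids. Those were the only groups of the 10 without overlap, against 9.34% of all genes, and the log2 fold change was −0.26 ± 0.08 (edgeR adjusted p = 0.0807). PDK4 had 0.08 ± 0.06, with a 95% interval of −0.05 to 0.22 (edgeR adjusted p = 0.63), and 0.00 ± 0.05 without combination replicate 2. The other 8 log2 fold changes lay between −0.19 and 0.08, and the median of the 10 was −0.06, against 0.00 for all genes. Without combination replicate 2 those 8 lay between −0.16 and 0.21, the highest being MPC1 (edgeR adjusted p = 0.295).

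The combination set against control gave 3 genes higher and 3 lower, and 6 of the 10 without overlap, where 14.3% of all genes passed, 7.58% higher and 6.68% lower (edgeR adjusted p below 0.05) and 16.3% did not overlap. PDK4 rose by 1.83 ± 0.07 on the log2 scale (edgeR adjusted p = 1.3e-13, rank 1 of 18121 genes by p), or by 1.75 ± 0.05 without combination replicate 2. PDK1 rose by 0.40 and PDK2 by 0.29, with edgeR adjusted p of 0.00471 and 0.0221. The PDK2 call was lost without control replicate 1 or 2 and without combination replicate 1 or 3, with adjusted p of 0.060 to 0.0631. PDP2 fell by 0.39 and PDP1 by 0.30, with edgeR adjusted p of 0.00407 and 0.0115. For PDP1 the adjusted p was 0.0524 without control replicate 2. MPC1 fell by 0.39 (edgeR adjusted p = 0.0323), but its groups overlapped, and without combination replicate 2 the value was −0.26 with an adjusted p of 0.0724. The MPC1 call was also lost without control replicate 2, 3 or 4 or combination replicate 1, with adjusted p of 0.0553 to 0.106. PDHA1 had −0.15 (edgeR adjusted p = 0.0705) with no overlap between groups, and it was called by DESeq2 (adjusted p = 0.0347). PDK3, PDHB and MPC2 had −0.04, −0.00 and 0.06, with groups that overlapped. This comparison, fatty acids against control and formoterol against control share the same 4 control libraries.

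The formoterol effect with fatty acids less that without was tested as an interaction, which includes control and so any effect of its BSA vehicle. It passed the threshold for 3 of the 10 genes, all negative, where 5.5% of all genes passed, 2.12% positive and 3.38% negative (edgeR adjusted p below 0.05). MPC2 had −0.58 ± 0.15 (edgeR adjusted p = 0.0295), from a formoterol effect of −0.08 with fatty acids and 0.50 without. PDP1 had −0.42 ± 0.11 (edgeR adjusted p = 0.0281), from −0.26 with fatty acids and 0.16 without. PDHA1 had −0.26 ± 0.08 (edgeR adjusted p = 0.0481), from 0.01 with fatty acids and 0.28 without. These calls were not firm. Of 23 alternative settings, MPC2 was called in 18, PDP1 in 17 and PDHA1 in 6. No member was called without control replicate 3, where adjusted p was 0.0728 for MPC2, 0.0701 for PDP1 and 0.0926 for PDHA1. MPC2 was also lost without control replicate 2, formoterol replicate 4 or fatty acids replicate 1 or 4, and PDP1 without control replicate 4, formoterol replicate 3 or fatty acids replicate 1 or 2. Without combination replicate 2 the adjusted p was 0.0188 for MPC2, 0.0282 for PDP1 and 0.0898 for PDHA1. With total counts, where the median interaction of all genes moved to 0.17, PDP1 had −0.26 and PDHA1 −0.11, and neither passed. For PDK4 the interaction was 0.01 ± 0.09, with a 95% interval of −0.18 to 0.20 (edgeR adjusted p = 0.961).

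**Figure D4:**
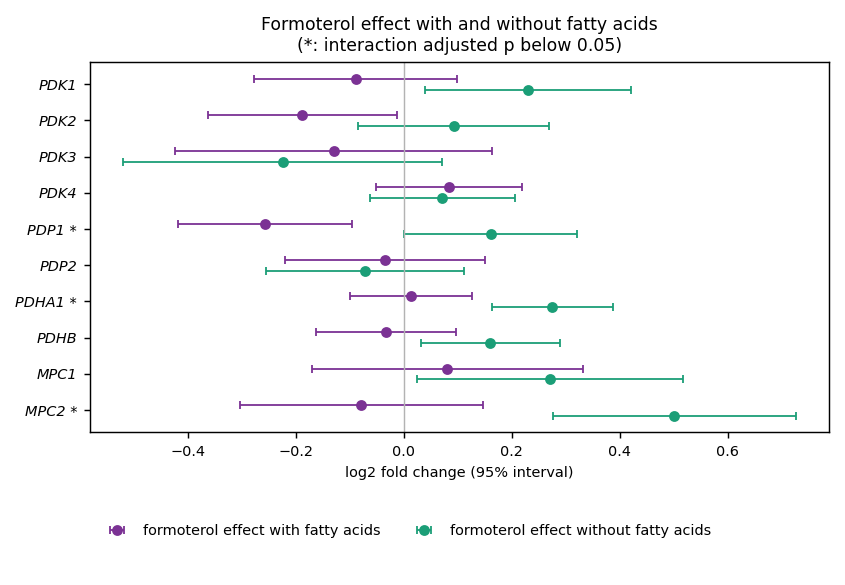
Log2 fold change of each of the 10 genes for formoterol with fatty acids (purple, the combination set against fatty acids) and without (green, formoterol set against control), with 95% intervals and asterisks where the interaction passed the threshold. The largest gap is that of MPC2, at −0.08 with fatty acids and 0.50 without.

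Genes around the complex were counted by list. Of the 4 measured other subunits of the complex and its phosphatase, 2 fell with fatty acids against control, none rose and the median log2 fold change was −0.22, against 0.01 for all genes. DLAT, the acetyltransferase core (E2), fell by 0.35 and DLD, the dihydrolipoamide dehydrogenase (E3), by 0.17, with edgeR adjusted p of 0.00103 and 0.0299. The DLD call was lost in 6 of 24 alternative settings, and DLD shares 70 exonic bases with LAMB1, which has 1.17 times its counts. In the combination set against formoterol DLAT fell by 0.45 and DLD by 0.35 (edgeR adjusted p = 8.34e-05 and 8.26e-05), and against control by 0.23 and 0.25 (edgeR adjusted p = 0.0231 and 0.00213). The DLAT call against control was lost in 5 of 24 alternative settings, with an adjusted p up to 0.0987 in edgeR. With formoterol against control, 1 of the 4 rose, DLAT by 0.22 (edgeR adjusted p = 0.0415), a call that held in 12 of 24 alternative settings. In the combination set against fatty acids and in the interaction 0 of 4 passed by edgeR.

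Of the 16 measured genes for sources and exits of pyruvate, 4 rose and 6 fell with fatty acids against control, with a median of −0.26. PKM, the pyruvate kinase of most non-liver cells, fell by 0.48, pyruvate carboxylase PC, which makes oxaloacetate from pyruvate, by 0.56 and citrate synthase CS by 0.43, with edgeR adjusted p of 4.96e-06, 2.82e-05 and 2.26e-06. The 4 that rose were the liver pyruvate kinase PKLR by 1.67, the cytosolic phosphoenolpyruvate carboxykinase PCK1 by 0.86, the alanine aminotransferase GPT2 by 0.55 and the monocarboxylate carrier SLC16A1 by 0.18, with edgeR adjusted p of 0.000279, 0.00109, 0.000645 and 0.0406. The SLC16A1 call was lost in 13 of 24 alternative settings. With formoterol against control 3 rose and none fell, at a median of 0.15. These were the mitochondrial phosphoenolpyruvate carboxykinase PCK2 (0.51), PCK1 (0.75) and GPT2 (0.63), with edgeR adjusted p of 0.00841, 0.00656 and 0.000477. In the combination set against formoterol 8 fell and none rose, at a median of −0.29, among them PCK2 by 1.16, the D-lactate dehydrogenase LDHD by 0.62 and CS by 0.49 (edgeR adjusted p = 1.32e-06, 1.28e-05 and 6.96e-07). Set against fatty acids, the combination had 2 that rose, LDHA by 0.28 and the lactate exporter SLC16A3 by 0.87 (edgeR adjusted p = 0.0138 and 0.0473). SLC16A3 was at 3.42 ± 0.94 CPM in the combination group and 1.86 ± 0.62 CPM with fatty acids (SD, n = 4 each). Its mean with formoterol alone was above both, at 5.27 CPM, so the rise is one relative to the fatty acids group. The SLC16A3 call was lost in 15 of 24 alternative settings, and the gene shares exonic bases with CSNK1D, which has 36.4 times its counts. The LDHA call was lost in 3 of 24. Set against control, the combination had 3 that rose, PCK1 by 1.07, GPT2 by 0.50 and SLC16A1 by 0.18 (edgeR adjusted p = 0.000111, 0.00174 and 0.0445), and the SLC16A1 call was lost in 18 of 24 alternative settings. In the same comparison 7 fell, including LDHD by 0.53, SLC16A7, a monocarboxylate carrier, by 0.52 and CS by 0.43 (edgeR adjusted p = 6.32e-05, 9.78e-05 and 2.45e-06).

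The interaction was negative for 3 of these 16 genes and positive for none. PKLR had −1.75 ± 0.40, PCK2 −0.81 ± 0.17 and GPT2 −0.69 ± 0.14, with edgeR adjusted p of 0.014, 0.00857 and 0.00857, and each was called in all 23 alternative settings. PKLR averaged 9.39 ± 4.33 CPM in the combination group, 17.8 ± 2.27 CPM with fatty acids, 9.96 ± 1.72 CPM with formoterol and 5.61 ± 1.62 CPM in control (SD, n = 4 each). PKLR shares exonic bases with HCN3, which has 0.309 times its counts. PCK2 averaged 64.2 ± 14.6, 79.1 ± 6.58, 143 ± 8.98 and 100.4 ± 10.1 CPM in the same groups. LDHB, the heart-type lactate dehydrogenase, was left out of the tests with 0 to 6 counts per library, and the malic enzyme ME1 and the carrier homologue MPC1L were listed at 0 in all 16.

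**Figure D5:**
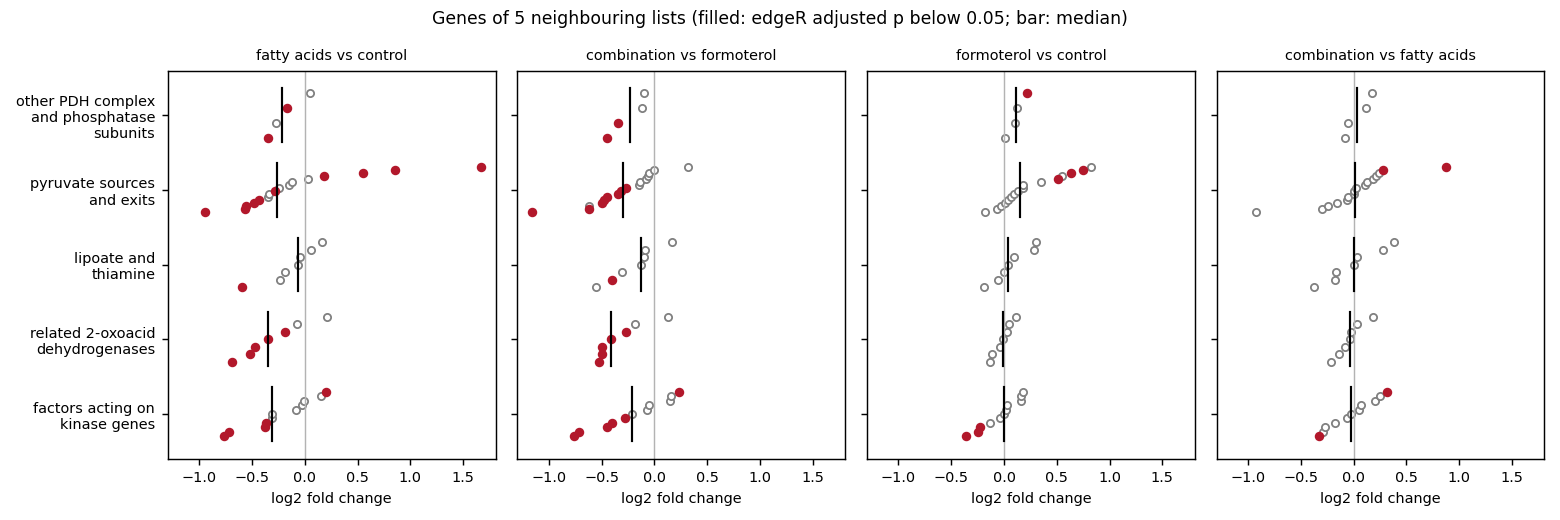
Log2 fold changes of the measured genes of 5 lists in 4 comparisons, 1 point per gene, filled red where the edgeR adjusted p is below 0.05, with the median of each list as a black bar. The medians of the related 2-oxoacid dehydrogenase list lie at −0.35 and −0.41 in the comparisons that differ in fatty acids and at −0.01 and −0.03 in those that differ only in formoterol.

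The related 2-oxoacid dehydrogenases share the E3 subunit and the cofactors of the pyruvate complex. Of 7 measured genes, 5 fell and none rose with fatty acids against control, at a median of −0.35. OGDH, the first enzyme of the 2-oxoglutarate complex, fell by 0.69, and BCKDHB and DBT, subunits of the branched-chain complex, by 0.52 and 0.47 (edgeR adjusted p = 9.89e-08, 8.1e-06 and 0.000547). In the combination set against formoterol 5 fell, at a median of −0.41, with PPM1K, the branched-chain phosphatase, down by 0.52, OGDH by 0.49 and BCKDHB by 0.41 (edgeR adjusted p = 1.44e-05, 1.36e-05 and 0.000133). Between the combination and control 4 fell, at a median of −0.50, with PPM1K down by 0.56, BCKDHB by 0.55 and OGDH by 0.50 (edgeR adjusted p = 3.78e-06, 3.76e-06 and 6.05e-06). With formoterol against control, in the combination set against fatty acids and in the interaction, 0 of 7 passed by edgeR. Of the 7 lipoate and thiamine genes, only the thiamine transporter SLC19A2 was called. It fell by 0.59 with fatty acids against control, by 0.40 in the combination set against formoterol and by 0.59 in the combination set against control (edgeR adjusted p = 2.83e-05, 0.00179 and 2.85e-05). The call against formoterol was lost in 1 of 24 alternative settings, total counts only (−0.26, edgeR adjusted p = 0.0723).

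The list of 11 factors known to act on kinase transcription holds nuclear receptors, a coactivator, forkhead factors and HIF1A. With fatty acids against control 1 rose and 4 fell, at a median of −0.31. The coactivator PPARGC1A fell by 0.76, the orphan receptor ESRRA by 0.72 and FOXO1 by 0.38 (edgeR adjusted p = 1.03e-07, 1.82e-06 and 0.000255). The 1 that rose was FOXO3, by 0.20 (edgeR adjusted p = 0.0224), a call lost in 6 of 24 alternative settings. PPARA, the fatty acid receptor of liver, had 0.15 (edgeR adjusted p = 0.363). With formoterol against control 3 fell and none rose: FOXO3 by 0.36, FOXO1 by 0.25 and RXRA by 0.22 (edgeR adjusted p = 0.000536, 0.0153 and 0.0204). The RXRA call was lost in 5 of 24 alternative settings and the FOXO1 call in 1, without control replicate 3 (edgeR adjusted p = 0.0578). In the combination set against formoterol FOXO3 rose by 0.23 (edgeR adjusted p = 0.00788) and 5 fell, and against control 6 fell, with PPARGC1A down by 0.72 and 0.56, ESRRA by 0.40 in both and ESRRG by 0.76 and 0.60 (edgeR adjusted p at most 0.0012). Between the combination and fatty acids FOXO3 fell by 0.33 and ESRRA rose by 0.31 (edgeR adjusted p = 0.00224 and 0.0337), and the ESRRA call was lost in 8 of 24 alternative settings. The interaction was positive for FOXO1 at 0.32 (edgeR adjusted p = 0.0401), a call lost in 12 of 23. ESRRA shares exonic bases with TRMT112, which has 0.404 times its counts.

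For each of the 8 members called in at least 1 comparison, the genes whose log2 CPM followed it most closely over the 16 libraries were looked up among 11565 protein-coding genes. The libraries share 4 treatments, so these correlations follow the group means, and they are given as descriptions. The closest to PDK4 were ANGPTL4, a secreted inhibitor of lipoprotein lipase (r = 0.974), CPT1A, which starts the mitochondrial import of fatty acids (r = 0.973), and KLF11 (r = 0.968). PDK2 was followed by ECH1, a dienoyl-CoA isomerase of fatty acid oxidation (r = 0.926), CITED2 and FAM222A, and PDK1 by TMCC3 (r = 0.890), RHPN2 and NEK6. PDHA1 was followed by HYAL1 (r = 0.972), DAP and TPP1, MPC1 by CA2 (r = 0.944), CPN2 and CCRL2, and MPC2 by RBP4, the plasma retinol carrier (r = 0.958), QDPR and DHRS7. PDP2 was followed by FCGR1A (r = 0.927), KLF13 and PAIP2B, and PDP1 by ATP6V1A (r = 0.884), RDX and ETNK1.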

How the data were processed

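The authors deposited 1 table of raw gene counts for 16 poly-A RNA libraries, with human gene IDs and gene lengths. Per the submitters' processing notes, HISAT2 2.0.5 and DESeq2 were used, and a mouse build (mm39) is listed there. However, all 58735 IDs are human (0 mouse) and were found in GENCODE release 29 with the same coordinates, so the counts were read as human. The counting program and strandedness are stated in neither labels nor headers. Members and lists were chosen with earlier results of these data known. Counts were filtered with filterByExpr, scaled with TMM and fitted with edgeR 4.0.16 (R 4.3.3) as 4 group means over 16 libraries, with 12 residual degrees of freedom. The quasi-likelihood test was adjusted by Benjamini-Hochberg over 18121 genes at 0.05. Intervals are 95%, and log2 CPM used a prior count of 2. TPM came from the counts and the deposited lengths, which equal exonic bases in GENCODE. Beside the 10 members, up to 3 genes per list and comparison with the smallest p past the threshold were named; PPARA, LDHB, ME1, MPC1L, DCAF6 and the list genes that rose outside that rule (PKLR, PCK1, GPT2, SLC16A1 and FOXO3) were added after values were seen. Neighbours were the 3 protein-coding genes with the highest r and a mean of at least 2 CPM. Replicates differed beyond counting noise in all 24 pairs within groups. The fit was also run on simulated counts with known changes and no outlying library, and no result here rests on that run. Alternatives were DESeq2 1.42.0, other scaling, filters and gene sets, only the groups compared, a replicate block and each library left out. Figures used matplotlib 3.10.9.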

Additional observations from a re-analysis of the deposited data

Results flagged for a closer look

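PDK4 in combination replicate 2 stood apart from its group, at 3065 CPM where the nearest of the other 3 libraries had 2509 CPM. It was the 1 outlying library among 40 groups of 4 tested, and chance alone flags about 1 group in 20. The same library had the lowest hepatocyte marker sum of all 16, 25068 CPM, and the highest TMM factor, 1.13, and the part of either in its PDK4 level was not tested. Without it PDK4 in the combination against control was 1.75 on the log2 scale.

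By the interaction test of edgeR, 3 members were called for a formoterol effect that differed between cells with and without fatty acids: −0.42 for PDP1, −0.26 for PDHA1 and −0.58 for MPC2 on the log2 scale. Their adjusted p values were 0.0281, 0.0481 and 0.0295. Of 23 alternative settings, the call held in 17 for PDP1, 6 for PDHA1 and 18 for MPC2, and no member was called without control replicate 3. For MPC2 the overlapping gene DCAF6 had −0.28 (edgeR adjusted p = 0.0654), and its part in the MPC2 value was not tested.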

How the results depend on the processing

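Of 1430 recomputed log2 fold changes of the 10 genes (24 alternatives, 16 of them leaving out 1 library), 1338 kept direction and side of the threshold, 56 no longer passed, 11 newly passed and 25 changed sign. None of those 25 passed the test in the reported fit or the alternative. Among them, formoterol against control gave −0.042 for PDK2 and −0.061 for PDK4 with total counts only, and the combination against control gave 0.00076 for PDHB without a filter. The other 22 came from leaving out 1 library. For the 51 fold changes of list genes named by rule and the 10 added, 1355 of 1460 kept both, 105 no longer passed and 0 changed sign. Genes called in the combination against fatty acids, 507, were 805 by DESeq2, 880 without a filter and 275 with only those groups fitted, and DESeq2 called 1 member there. Interaction calls, 997, were 1523 without a filter. With total counts only, 1 member was called in formoterol against control and 1 in the interaction.

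Leaving out 1 library gave 2276 to 3587 genes and 5 to 6 members for fatty acids against control, 1002 (without control replicate 3) to 2588 and 2 to 3 for formoterol against control, and 302 (without fatty acids replicate 3) to 590 and 0 to 0 for the combination against fatty acids. It gave 2479 to 3399 and 6 to 7 for the combination against formoterol, 1975 to 2811 and 3 (without control replicate 2) to 6 for the combination against control, and 444 (without control replicate 3) to 1325 and 0 (likewise) to 3 for the interaction. Log2 fold changes whose sign changed ran from −0.10 to 0.028 for PDP1 in fatty acids against control. In the combination against fatty acids they ran from −0.11 to 0.018 for PDP2, −0.016 to 0.050 for PDHA1 and −0.15 to 0.043 for MPC2. Against control the combination gave −0.094 to 0.048 for PDK3, −0.033 to 0.022 for PDHB and −0.0086 to 0.18 for MPC2. The interaction gave −0.037 to 0.25 for PDK3, −0.070 to 0.047 for PDK4 and −0.040 to 0.090 for PDP2.

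Libraries of the same replicate number correlated weakly at most: 0 of 24 same-number pairs were above 0.1 (−0.11 to 0.08). Of the libraries, 7 of 16 correlated best with one of their own number, and whether that exceeds chance was not tested. The median r was 0.0036 for same-number pairs and −0.0016 for other pairs. With 4 libraries per group, this check cannot show that pairing was absent. A fit with the replicate block called 3108, 1967, 537, 3447, 2583 and 1089 genes and 6, 2, 0, 6, 6 and 3 members for fatty acids against control, formoterol against control, the combination against fatty acids, formoterol and control, and the interaction. Depth did not keep any member from being tested.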
